A study of Mus musculus with 6 samples.

Results

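Chitinase-like proteins are measured here as 5 mouse genes, Chil1, Chil3, Chil4, Chid1 and Chit1, chosen by their symbols from a table of 23282 genes. The family was picked with the response of Chil1 to interleukin-1β (IL-1β) already known, so the comparison of IL-1β with control is a description for the members, with no test. Primary hepatocytes, isolated by collagenase perfusion from the livers of C57BL/6N mice, formed 2 groups of 3 samples, a control group left untreated and a group given IL-1β recombinant protein for 24 h. No other allele or agent is given for either group, and the sample labels give neither the age of the mice nor the IL-1β dose of the sequenced cultures. They do not say whether the samples of a group came from separate animals or cultures, so the spread between samples, on which every standard error and p-value here rests, may be technical. RNA was read by QuantSeq 3′ mRNA-Seq, which sequences the 3′ end of each mRNA, and the deposited values are reads counted on each gene.

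The family belongs to the glycoside hydrolases of family 18, whose active members cut chitin, a polymer of N-acetylglucosamine that mammals do not make. An active enzyme carries a glutamate in a conserved stretch of the catalytic barrel, and a chitinase-like protein keeps the fold and often the sugar binding without that residue. Chil1, also listed as Chi3l1 and Brp39, encodes the mouse counterpart of human CHI3L1, a secreted protein followed in blood as a marker of liver fibrosis and produced in inflamed tissue by macrophages, neutrophils and epithelial cells. Chil3 and Chil4 encode Ym1 and Ym2, which are made by macrophages under IL-4 and IL-13 and, for Ym1, by neutrophils. Chid1 encodes the stabilin-1-interacting chitinase-like protein, a protein of lysosomes and secretory vesicles found in many tissues. Chit1 encodes chitotriosidase, an active chitinase of macrophages, so it is the single true enzyme of the group.

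The coding stretch around the catalytic position separates Chit1 from the other members, and it is shown to make that difference visible. Each line gives 30 bases of the coding strand from the GRCm38 genome and its GENCODE transcripts, and the capitals mark the codon aligned with the catalytic glutamate codon of Chit1.
Chit1: gatggccttgaccttgactggGAGttccca
Chil1: gatgggctggatctcgcctggCTCtaccct
Chil3: gatggcctcaacctggactggCAGtaccct
Chil4: gatggcctcaacctggactggCAGtaccct
Chid1: ggttttgtggtggaggtctggAGCcagttg
The windows lie at chr1:134145334-134145363 (plus strand) in Chit1, chr1:134185231-134185260 (plus) in Chil1, chr3:106160422-106160451 (minus) in Chil3, chr3:106210527-106210556 (minus) in Chil4 and chr7:141526449-141526478 (minus) in Chid1. Among the 5 genes, Chit1 alone had a glutamate codon there. Chil3 and Chil4 were identical over the window and shared 95.4% of their aligned coding bases, the closest pair of the family. Chil1 was nearest to Chit1, at 60.1%, and shared 53.9% with Chil3 and 52.5% with Chil4. Chid1 shared between 38.6% and 40.6% with the other members, and its aligned codon is correspondingly less certain.

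In the table, on GRCm38, Chil1 spans chr1:134182404-134190031 on the plus strand and Chit1 chr1:134111242-134151540 on the same strand. Chil3 at chr3:106147554-106167564 and Chil4 at chr3:106201491-106219479 lie side by side on the minus strand. Chid1 spans chr7:141493136-141539857 on the minus strand. The annotation gives 10 exons to Chil1, 11 to Chil3, 11 to Chil4, 13 to Chid1 and 12 to Chit1.

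Library totals ranged from 9538741 to 11105408 counts, and counts were scaled with TMM factors to a common library total (CPM). A limit of detection of 3 counts in a library came to between 0.269 and 0.321 CPM, which covers counting error only. Of the 11657 genes with enough counts for a test, 1563 (13.4%) passed an adjusted p of 0.05 in edgeR's quasi-likelihood test, 6.97% higher and 6.44% lower after IL-1β. The sum of 10 hepatocyte markers was 24986 to 25597 CPM in control and 21366 to 23053 CPM after IL-1β, led by Alb, and 6 of the 8 tested fell, Hnf4a among them (3 without the first IL-1β library). Tat, 1 of these 6, passed the filter on low counts only through its control libraries, so its call is given no weight. The urea cycle markers Cps1 (18 to 33 counts) and Ass1 (3 to 13 counts) were low in all 6 libraries.

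Chil1 was at the limit of detection in control hepatocytes and near the middle of all tested genes after IL-1β. Chil1 had 7, 3 and 4 counts in the control libraries against 241, 307 and 252 after IL-1β. Scaled to depth, these were 0.658, 0.269 and 0.403 CPM in control and 25.8, 29.5 and 23.4 CPM after IL-1β. Every IL-1β library lay far above every control library, and the second control library sat exactly on the limit of 3 counts. The group means were 0.443 ± 0.198 CPM (SD, n = 3) and 26.2 ± 3.06 CPM (SD, n = 3). The edgeR fit put the log2 fold change at 5.86 with a standard error of 0.27. The ratio of the mean CPM was 59.2. The summed counts, 14 against 800, gave a depth-scaled ratio of 59.4 with a 95% exact counting interval of 35.2 to 109, and this interval leaves out the spread between libraries. The control value therefore sets the precision of the fold, and adding 1 to each CPM before taking logs lowered the log2 difference to 4.24. Chil1 passed the filter on low counts only through its IL-1β libraries. Its IL-1β level stood at the 54.2 percentile of tested genes.

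Chid1, by contrast, was well expressed in every library and somewhat lower after IL-1β. Chid1 had 1099, 1318 and 1154 counts (103, 118 and 116 CPM) in control against 885, 903 and 988 (94.6, 86.7 and 91.8 CPM) after IL-1β. The groups did not overlap, with the first control library the lowest of its group and the first IL-1β library the highest of its own. Group means were 113 ± 8.06 CPM (SD, n = 3) in control and 91.1 ± 3.99 CPM (SD, n = 3) after IL-1β, 19.1% lower, with a log2 fold change of -0.31 (standard error 0.080). The depth-scaled ratio of the summed counts was 0.808, with a counting interval of 0.769 to 0.850. Both members with counts therefore had groups that did not overlap, in opposite directions, as did 28.2% of all tested genes. Since the family was chosen on this contrast, nothing is read from that share.

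Chil3, Chil4 and Chit1 had 0 counts in all 6 libraries, which allows at most 0.269 to 0.321 CPM in a library, and no fold is given for them. All 3 genes were thus not detectable at this depth in either group. Over the final 500 nt of each annotated transcript, where QuantSeq reads fall, 12.2% of the 75-nt windows of Chil3 and 16.4% of those of Chil4 also occurred in the other gene or in Gm6522. No such window was shared for Chil1, Chid1 or Chit1 among transcripts read in their own direction. The opposite strand, where Tspan4 overlaps the 3′ end of Chid1, was not searched. How reads that match several genes were counted is not given in the sources used here, and most windows of Chil3 and Chil4 were their own.

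**Figure D1:**
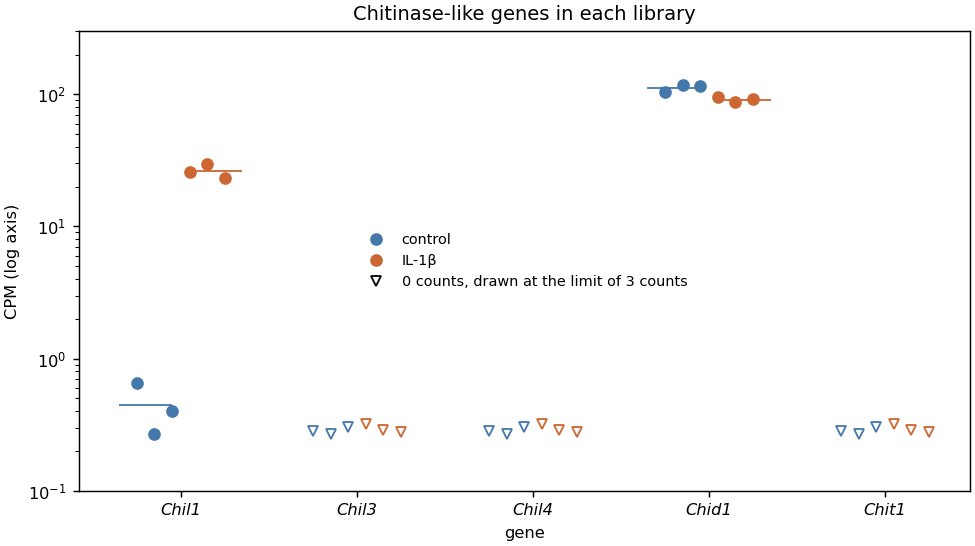
Values of the 5 genes in CPM on a log axis, with a point for each library (blue control, orange IL-1β), a line at each group mean, and open triangles at the limit of 3 counts where a library held 0 counts. Chil1 has means of 0.443 CPM in control and 26.2 CPM after IL-1β, Chid1 lies between 86.7 and 118 CPM throughout, and Chil3, Chil4 and Chit1 have no counts.

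The make-up of the family's reads differed accordingly. Chil1 took 0.633%, 0.227% and 0.345% of the family's counts in the control libraries (Wilson 95% upper bounds of 1.30%, 0.666% and 0.885%). It took 21.4% (19.1% to 23.9%), 25.4% (23.0% to 27.9%) and 20.3% (18.2% to 22.7%) in the IL-1β libraries, and Chid1 made up the rest. A 3′ method counts an mRNA about once whatever its length, so the CPM values are the direct comparison. After IL-1β the mean was 26.2 CPM for Chil1 and 91.1 CPM for Chid1. Dividing by length lowers the longer Chid1 transcript more, and those values are given for reference only. Divided by transcript length, the Chil1 level was 0.262 ± 0.117 CPM per kb in control and 15.5 ± 1.81 after IL-1β, and the Chid1 level 26.6 ± 1.91 and 21.6 ± 0.945 (SD, n = 3 each). On both scales Chid1 remained the more abundant of the pair in every library. In cultures that can hold more than 1 cell type, more cells of a type and more RNA per cell cannot be told apart.

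The genes with the profile most like that of Chil1 are listed by the root mean square difference of log2(CPM + 1) over the 6 libraries, after centring each of 11655 other tested genes on its own mean. Il1f9, which encodes the IL-1 family cytokine IL-36γ, was nearest at 0.341, with 1.25 ± 0.314 CPM in control and 30.8 ± 2.66 CPM after IL-1β. Cxcl3, a neutrophil-attracting chemokine, followed at 0.374 (1.98 ± 1.25 and 42.7 ± 4.55 CPM). Saa3, an inducible serum amyloid A, stood at 0.375 despite a far higher level (1100 ± 296 and 17896 ± 1171 CPM). Csf3, the granulocyte colony-stimulating factor, came next at 0.449, with 0 counts in the 3 controls and 83, 99 and 121 after IL-1β. On this scale Chil1 differed by 4.24 between groups and these genes by 3.83, 3.97, 4.06 and 3.44 in the same order. The added 1 weighs most on genes near 0 in control, such as Chil1 and Csf3, so these steps do not rank the genes by fold. The likeness rests mostly on the step between the groups, which all 4 share. Cxcl3 and Csf3, like Chil1, passed the filter on low counts only through their IL-1β libraries.

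For Chid1 the nearest profiles were much closer, since all its differences were small. Tspan4, a tetraspanin, was nearest at 0.0306, followed by the dihydrodiol dehydrogenase gene Dhdh at 0.0374 and the coagulation factor XII gene F12 at 0.0411. F12 went from 250 ± 17.4 to 207 ± 5.33 CPM and Dhdh from 26.1 ± 2.88 to 21.2 ± 0.982 CPM.

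**Figure D2:**
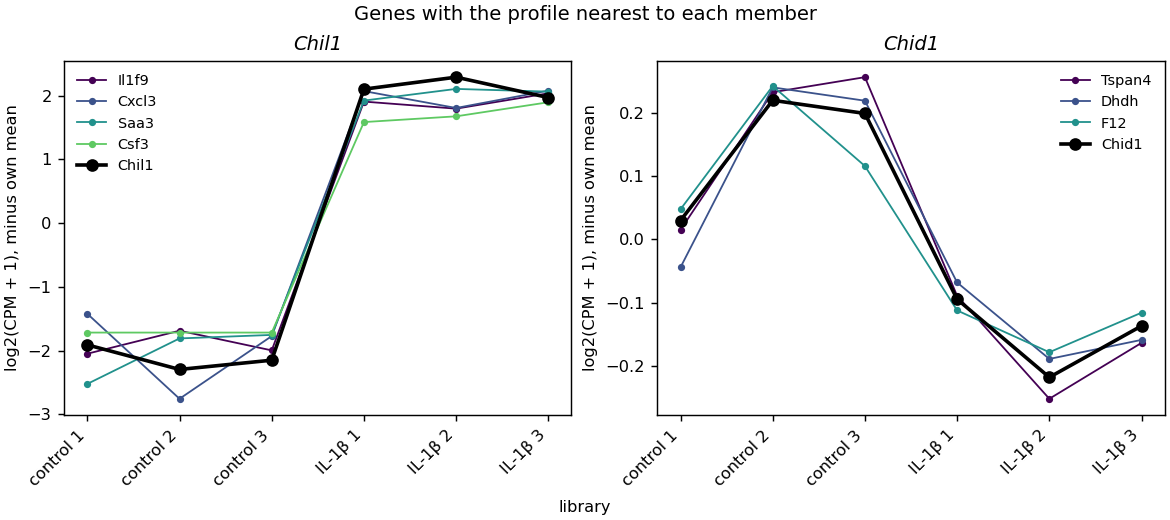
Profiles over the 6 libraries of Chil1 (left) and Chid1 (right) in black with the nearest genes in colour, 4 for Chil1 and 3 for Chid1, as log2(CPM + 1) minus each gene's own mean. The Chil1 panel spans a step of 4.24 between the groups and the Chid1 panel a step of -0.30, so the vertical axes differ.

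Tspan4 is also the direct neighbour of Chid1. The genes run tail to tail on opposite strands, and their last exons overlap by 292 bp at chr7:141493136-141493427, at the 3′ ends that QuantSeq reads. Tspan4 held 965, 1180 and 1066 counts in control and 788, 782 and 860 after IL-1β (101 ± 9.20 and 79.8 ± 4.56 CPM), and it fell by 0.34 in log2 units (standard error 0.086, edgeR adjusted p = 0.0066). Without the second IL-1β library the adjusted p was 0.0600. The ratio of Tspan4 to Chid1 counts stayed between 0.866 and 0.924 over all 6 libraries. Whether counting used strand is not given in the sources used here, so reads of the shared stretch cannot be told apart, and the Chid1 and Tspan4 values are uncertain to that extent.

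Around the 5 genes, the 3 nearest listed genes on each side came to 18 genes, of which 9 were tested and 5 had 0 counts in all libraries. Prelp, a matrix proteoglycan gene 261 kb from Chil1, rose by 2.61 on the log2 scale (standard error 0.68, edgeR adjusted p = 0.0094), from 2, 0 and 8 counts to 19, 24 and 18. Prelp passed the filter on low counts only through its IL-1β libraries, so its call is given no weight. The call was also lost without the second control library (edgeR adjusted p = 0.0599) or without the second IL-1β library (0.0629). Tspan4 was the 1 neighbour called lower, while over all tested genes 6.97% were called higher and 6.44% lower. The other 7 tested neighbours did not pass, and the median over the 9 was -0.14 on the log2 scale against -0.002 over all tested genes. Nearest to Chil1 among tested genes, the adenosine receptor gene Adora1 at 9.18 kb had a log2 fold change of 0.40 (edgeR adjusted p = 0.150). The anti-proliferative gene Btg2, between Prelp and Chit1, had -0.16 (edgeR adjusted p = 0.334). The myosin-binding protein gene Mybph, 3.42 kb from Chil1, held 0 to 2 counts in a library and was not tested. Beside Chil3 and Chil4, Ovgp1 had -0.08 and Dennd2d 0.17 (edgeR adjusted p = 0.956 and 0.306). Beside Chid1, Cd151 had -0.21, Polr2l -0.18 and Ap2a2 -0.14 (edgeR adjusted p = 0.0698, 0.177 and 0.332). Cd151 was called lower with the replicate block (adjusted p = 0.0447), with total-count scaling (0.0204) and with upper-quartile scaling (0.0334), and Polr2l without the first control library (0.0409).

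**Figure D3:**
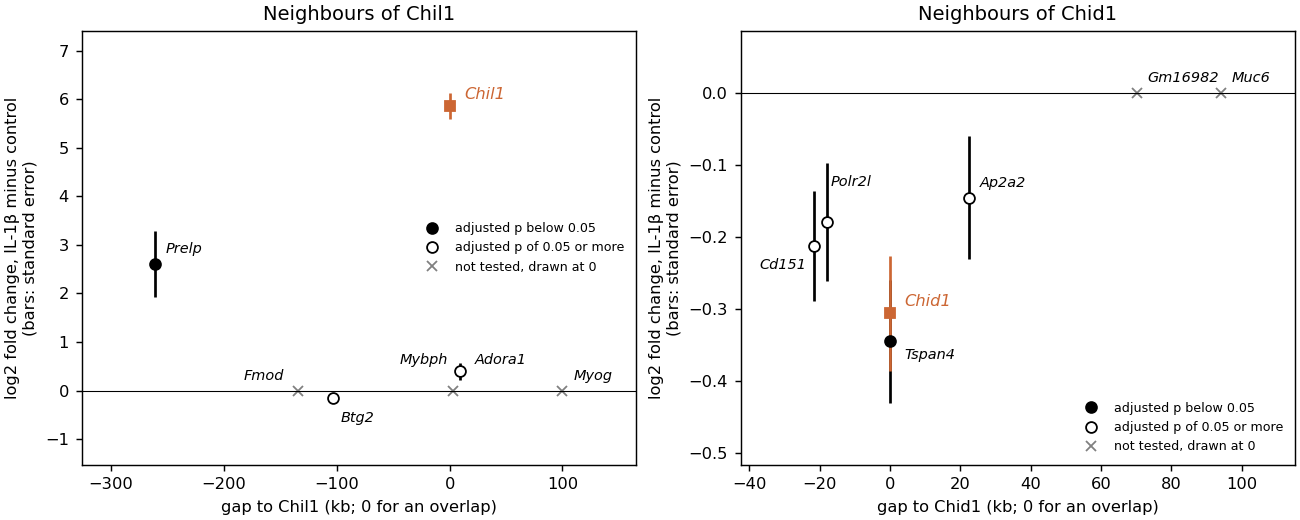
Log2 fold change (IL-1β minus control, bars are the standard error) of the 3 nearest genes on each side of Chil1 (left) and Chid1 (right) against the gap to the member in kb, with filled points for an adjusted p below 0.05 and crosses at 0 for genes not tested. Chil1 at 5.86 stands above its neighbours, of which Prelp at 2.61 is the highest, while Chid1 at -0.31 lies beside Tspan4 at -0.34. Prelp, like Chil1, passed the filter on low counts only through its IL-1β libraries.

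The promoter of Chil1 is shown because Chil1 is the member with the large difference. The 250 bases before its RefSeq start site on GRCm38.p6, at chr1:134181906-134182155 on the plus strand, hold 51.6% G and C against a median of 52.4% over all promoters. GENCODE starts Chil1 at chr1:134182176 and the deposited positions at chr1:134182404, so the distances below hold for the RefSeq start only.
Chil1 promoter: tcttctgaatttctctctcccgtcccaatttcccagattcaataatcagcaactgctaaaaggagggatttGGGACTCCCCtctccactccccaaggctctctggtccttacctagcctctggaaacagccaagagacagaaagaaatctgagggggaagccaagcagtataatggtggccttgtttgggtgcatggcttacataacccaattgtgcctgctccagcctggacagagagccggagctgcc
The capitals mark a match to the NF-κB consensus, 179 to 170 bases before the start. Both strands were searched, and such a match occurred in 3.90% of 32851 RefSeq promoter entries of the same length. The motifs were chosen with this promoter in view, so that share does not measure how unusual the match is. The other motifs searched were the palindrome TTCNNNGAA (STAT3, in 7.02% of promoters), its STAT6 form with a spacer longer by 1 base (5.85%), TGANTCA (AP-1, 6.75%), TTGCNNAA (C/EBP, 9.56%) and GGGCGG (Sp1, 32.7%), and none of these letters occurred in the Chil1 window.
The other members held different letters. Chil3 and Chil4 each had 1 TTCNNNGAA site, 172 to 164 and 200 to 192 bases before the start, and Chil4 also had 1 TTGCNNAA site. Chit1 had 1 TGANTCA site at 52 to 46 bases, and Chid1 had 3 GGGCGG sites in each of its 3 promoter entries. These matches describe the sequence, and binding was not measured.

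Among receptors and transcription factors known to act on Chil1 or Chil3, 9 were called higher after IL-1β and 9 did not pass. All 18 were tested, 9 rose and none fell, and their median log2 fold change was 0.40 against -0.002 over all tested genes, of which 6.97% were called higher. This list and those that follow were chosen with earlier results of these data known, so their counts are description only. Il1r1, the IL-1 receptor itself, rose from 36.6 ± 3.47 to 152 ± 10.2 CPM (log2 fold change 2.06, edgeR adjusted p = 6.3e-15). Cebpd, a factor of acute inflammation, rose by 2.27 on the log2 scale from 44.7 ± 12.3 to 216 ± 14.7 CPM (edgeR adjusted p = 2.3e-13). The hypoxia factors Hif1a (log2 fold change 1.75, edgeR adjusted p = 5.3e-14) and Epas1 (1.00, 7.3e-09) also rose, as did Cebpb, Stat3, Il6ra, Cebpa and Nfkb1. Nfkb1 did not pass in DESeq2 (adjusted p = 0.314) or on leaving out any library but the first control (edgeR adjusted p of 0.0562 to 0.204). Cebpa did not pass without the second control library (0.0598) or the third IL-1β library (0.130), nor Il6ra without the third IL-1β library (edgeR adjusted p = 0.0801). The mRNAs of Rela, the p65 subunit of NF-κB, and of Jun, a subunit of AP-1, had log2 fold changes of -0.00 and -0.03 (edgeR adjusted p = 0.999 and 0.841), and mRNA levels do not measure the activity of these factors.

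Among 12 binding partners of CHI3L1 or of the Chid1 protein, 10 were tested, 2 rose and none fell, with a median log2 fold change of 0.25. Over all tested genes 6.97% were called higher. Cd44, the hyaluronan receptor, rose by 2.64 on the log2 scale (standard error 0.11, edgeR adjusted p = 2.9e-15). Its counts were 284, 309 and 389 in control and 1703, 2209 and 2021 after IL-1β, with no overlap. Lgals3, the galectin-3 gene, rose by 0.53 (edgeR adjusted p = 1.5e-05) from 126 ± 12.5 to 183 ± 7.20 CPM. The syndecan gene Sdc1 and the integrin gene Itgav had -0.23 and 0.21 (edgeR adjusted p = 0.113 and 0.205). Sdc1 was called lower with total-count scaling (edgeR adjusted p = 0.0391). Of the receptor chains, Il13ra1 had 0.32 and missed the threshold narrowly (edgeR adjusted p = 0.0508), and it passed without the first control library (0.0181). It also passed, at adjusted p of 0.0459 to 0.0490, with the replicate block, limma, no filter or at least 10 counts in every sample. Il13ra2, the receptor to which CHI3L1 binds, had 0 counts in all libraries, and Tmem219, its co-receptor, had -0.55 (edgeR adjusted p = 0.132). Stab1, the sorting receptor after which the Chid1 protein is named, had 0.25 (edgeR adjusted p = 0.654) with 40 to 84 counts in a library.

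The list for IL-4, IL-13 and STAT6 holds receptor chains and factors of the pathway together with genes it is known to induce, among which Chil3 is usually measured. Of 16 listed, 7 were tested, 2 rose and 1 fell, against 13.4% called over all tested genes. Retnla, Retnlb, Retnlg, Clec10a and Ccl17 had 0 counts in all 6 libraries, like Chil3 and Chil4. The cytokine receptor chain gene Il4ra rose by 0.41 (edgeR adjusted p = 0.0094) and Socs1, an inhibitor of cytokine signaling, by 1.95 (0.0074), and both calls were lost without the second IL-1β library (adjusted p = 0.131 and 0.111). Socs1 had 23, 11 and 2 counts in control against 36, 67 and 31 after IL-1β. Its control libraries alone would not have passed the filter on low counts, so its call is given no weight. With at least 10 counts required in every sample Socs1 was not tested. Pparg, a nuclear receptor of lipid metabolism, fell by 1.28 (edgeR adjusted p = 0.0018). Stat6 and Arg1 had log2 fold changes of -0.00 and -0.02 (edgeR adjusted p = 0.986 and 0.984), and the median of the list was -0.00. The chemokine gene Ccl24 went from 0, 0 and 0 counts to 7, 25 and 17 but did not reach the filter.

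Of the other family 18 genes, Chia1 (acidic chitinase) and Chil6 had 0 counts in all libraries, the lysosomal chitobiase gene Ctbs had a log2 fold change of -0.04 and the oviduct glycoprotein gene Ovgp1 -0.08 (edgeR adjusted p = 0.947 and 0.956). Neither passed an unadjusted p of 0.05 or DESeq2, and the median of both was -0.06. Of 18 genes that make, cut or salvage N-acetylglucosamine polymers and hyaluronan, 14 were tested, 2 fell and none rose, with a median of 0.03, against 6.44% called lower over all tested genes. The hyaluronidase gene Hyal1 fell by 1.23 (edgeR adjusted p = 0.0436) and the glycosylasparaginase gene Aga by 0.28 (0.0468). Each call rested on most of the libraries. Hyal1 was lost on leaving out any but the first IL-1β library (edgeR adjusted p of 0.0525 to 0.213), and Aga on leaving out any but the first control library (0.0587 to 0.215). The hexosaminidase gene Hexa and the hyaluronidase gene Tmem2, the most abundant of those not called, had 0.12 and 0.27 (edgeR adjusted p = 0.462 and 0.110).

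**Figure D4:**
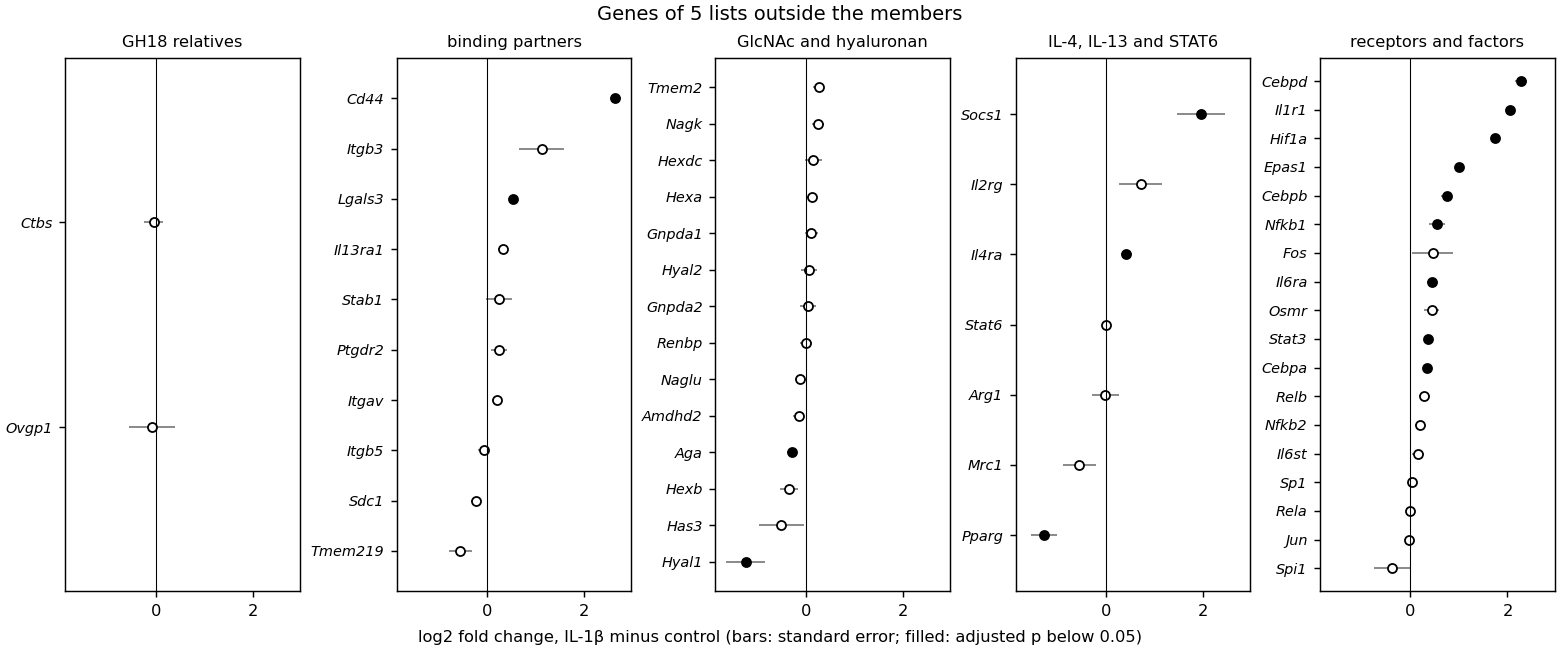
Log2 fold change (IL-1β minus control) of the tested genes in 5 lists around the family, 1 panel a list, with bars for the standard error and filled points for an edgeR adjusted p below 0.05. Of the called genes, 9 lie in the panel of receptors and factors, all to the right of 0, and Cd44 at 2.64 is the farthest point.

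Markers of cells that are known sources of Chil1, Chil3 or Chit1 were measured beside them. Of 12 listed neutrophil markers, S100a9, Mpo, Elane, Ltf and Ngp had 0 counts in all libraries, and the summed level was 0.504 to 1.43 CPM in control and 3.42 to 6.04 CPM after IL-1β. The single tested marker, S100a8, went from 0, 0 and 0 counts to 19, 36 and 51, while its partner S100a9 had none. It passed the filter only through its IL-1β libraries, so its call is given no weight. Prtn3, the gene of the granule protease PR3, held 1 to 3 counts in control and 5 to 9 after IL-1β. The sum of 16 Kupffer cell or macrophage markers was 252 to 284 CPM in control and 258 to 291 CPM after IL-1β, and none of the 12 tested passed in edgeR or DESeq2 (3 were higher at an unadjusted p of 0.05, and 2 passed without the first control library). Cd68 led it at 192 ± 17.4 and 184 ± 12.3 CPM, Clec4f held 0 to 27 counts, Timd4 0 to 1 and Cd163 0. Eosinophil or mast cell markers had 1 count in all. Of 6 liver endothelial markers tested, Clec4g and Kdr fell and Lyve1 rose (log2 fold change 0.45, edgeR adjusted p = 0.0274), against 13.4% called over all tested genes. Clec4g had 72, 48 and 63 counts in control against 3, 7 and 14 after IL-1β. It passed the filter only through its control libraries, so its call is given no weight. The Lyve1 call was lost with total-count scaling (0.0507) and without the first or the third control library or the second or the third IL-1β library (0.0807 to 0.137). Of 2 stellate markers tested none passed in edgeR, at an unadjusted p of 0.05 or in DESeq2. Of 5 listed cholangiocyte markers, Krt19 had 6, 3 and 2 counts in control and 0 after IL-1β. Krt7 held 0 to 2 counts in a library and Epcam 0 to 1. Of the 2 tested, Spp1 fell by 1.20 on the log2 scale, and Sox9 had 0.21 (edgeR adjusted p = 0.0519). Sox9 was called higher in DESeq2, in limma, with the replicate block, under a minimum of 10 counts per sample and without the first control library (adjusted p of 0.0401 to 0.0480). The part of these cells in the Chil1 values was not tested.

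**Figure D5:**
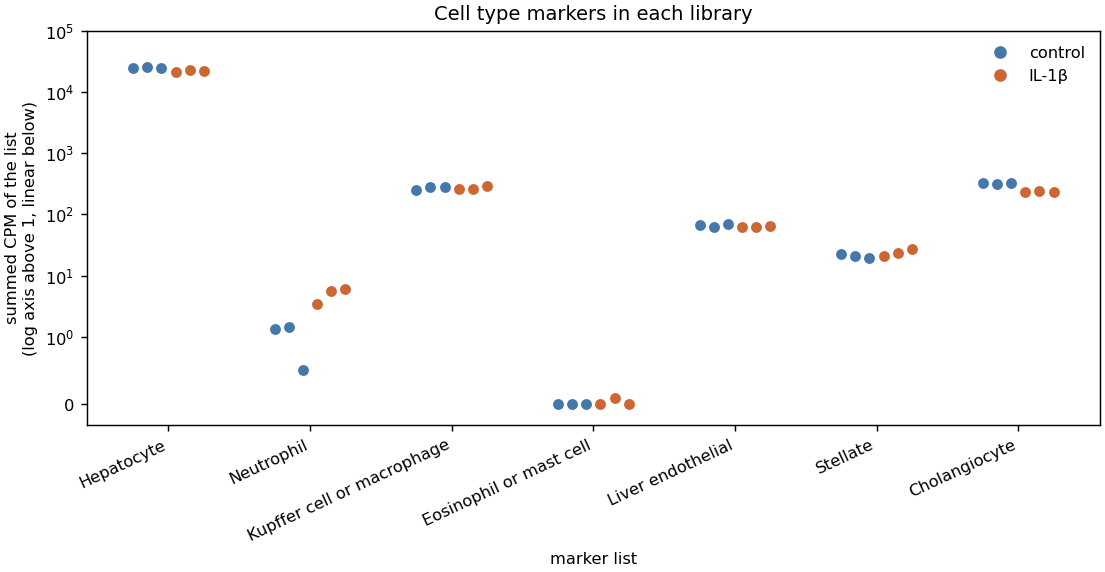
Summed level (CPM, log axis above 1 and linear below) of 7 marker lists in each library, blue for control and orange for IL-1β. Neutrophil markers stay at or below 6.04 CPM and macrophage markers overlap between the groups, while hepatocyte markers lie between 21366 and 25597 CPM.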

How the data were processed

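RNA of 6 cultures of primary mouse hepatocytes (3 control, 3 IL-1β, grouped by the sample labels) was sequenced from its 3′ ends (QuantSeq, 75-nt reads). The authors aligned reads with Bowtie2 to mm10 (GRCm38) and deposited raw counts per gene. The counting tool and the handling of strand and of multiply matching reads are not given in the sources used here. The deposited table also holds the authors' log2 normalized values, a linear ratio (fold change) and a p-value for the same comparison, none of which were used. Although the series design counts 2 samples in a group, it names 3, and all 6 columns were used.

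Group differences came from edgeR 4.0.16 under R 4.3.3 (filterByExpr, TMM, quasi-likelihood test, Benjamini-Hochberg over 11657 genes, two-sided), after a trial on simulated data. The standard error is the log2 fold change divided by the square root of F. Members and lists were chosen with earlier results of these data known, and members got no p-value. Genes named are the members, up to 4 called and the 2 most abundant uncalled genes per list, tested neighbours and the 4 nearest profiles, of which 1 is not reported here. Il13ra1, Tmem219, Il13ra2, Stab1, Ccl24, Mybph, S100a9, Prtn3 and some other genes at or near 0 counts were named after their values were seen. Counting intervals (95%) were exact or Wilson. Motifs were chosen with the Chil1 promoter in view. Alternatives were DESeq2 1.42.0, limma 3.58.1, total-count and upper-quartile scaling, other filters and pseudocounts, a replicate block, and leaving out each library. Of 22995 genes matched to the annotation, 99.2% overlapped it.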

Additional observations from a re-analysis of the deposited data

How the results depend on the processing

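The log2 fold change of Chil1 lay between 4.24 and 6.25 over 15 alternatives, and the lowest value came from limma on log2(CPM + 1) and from the means of log2(CPM + 1), both 4.24, where the added 1 exceeds the control level. Leaving out each library gave 5.59 to 6.25. With at least 10 counts required in every sample Chil1 was not tested. Chid1 kept its direction in all 16 alternatives, between -0.36 and -0.27, which is also its range on leaving out libraries. Of 2 calls among the sugar-handling genes, 1 was left with DESeq2, with no filter and with the replicate block. Leaving out libraries gave 0 to 1 calls. Without the third control library both calls were lost, and the 1 call there was Nagk, gained as higher (edgeR adjusted p = 0.0444). The 3 calls of the IL-4 and IL-13 list ranged from 1 to 4 on leaving out libraries, with 1 left without the second IL-1β library. The 2 calls among neighbours fell to 1 under a minimum of 10 counts per sample and ranged from 0 to 3 on leaving out libraries. Calls over all genes numbered 1131 to 1728. Scaling by total counts moved the median of all genes by -0.05 and the share of calls that were higher from 52.0% to 39.6%.

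Control and IL-1β samples of the same replicate number had nearly uncorrelated deviations from their group means (correlations 0.075, 0.027 and -0.005). With 3 samples in a group this check cannot settle whether samples were paired, and the labels do not say. Of the libraries, 3 of 6 samples correlated best with the sample of their own number, and the block gave 1671 calls against 1563. It changed no value of the members by more than the spread between libraries. In the control libraries 3 to 7 counts of Chil1 limit any fold, and a level of Chil3, Chil4 or Chit1 under about 3 counts in a library cannot be seen at this depth.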
